A study of Homo sapiens with 16 samples.

Results

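The genes of WNT signalling from the ligand to the transcription factor were followed through the gain of gemcitabine resistance in bladder cancer cells. They were chosen by gene symbol: the WNT ligands, the frizzled receptors, the co-receptors LRP5, LRP6, ROR1 and ROR2, the R-spondins with their LGR receptors, the receptor-removing ligases RNF43 and ZNRF3, the DKK, SFRP, WIF1 and NOTUM inhibitors, the KREMEN genes, APC, the AXIN and NKD genes, and CTNNB1 with the TCF/LEF factors. This rule found 63 of the 39007 symbols in the table. RNA was sequenced from T24, an established human bladder cancer cell line, and from GRC1, which is 1 line grown out of T24 by repeated rounds of exposure to gemcitabine, a nucleoside analogue that blocks DNA synthesis. Each of 4 stages gave 4 libraries: parental phase P0, which is T24 that had not been selected, the early phase (P3), the intermediate phase (P7) and the late phase (P15), and the phase number counts the rounds of exposure that the cells had survived. All groups share the T24 background, no other allele or agent is named in the labels, and the P3, P7 and P15 libraries describe 1 selected line and not resistant lines in general. The labels do not say that the libraries of a phase came from separate cultures, so the p-values measure the spread between these libraries, which may be technical. Sample numbers in the titles repeat between phases, and the titles name no sequencing run. A difference between runs thus cannot be told apart from one between phases.

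A WNT ligand binds a frizzled receptor together with the co-receptor LRP5 or LRP6, and the destruction complex, in which APC and the AXIN proteins hold beta-catenin for degradation, is then inactivated. Beta-catenin (CTNNB1) enters the nucleus and acts with the TCF/LEF factors on target genes, several of which (AXIN2, NKD1, RNF43, ZNRF3, NOTUM and DKK1) encode inhibitors of the same pathway. Ligands such as WNT5A also signal through ROR1 and ROR2 without beta-catenin.

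Values are given as log2(CPM + 1), where CPM is the count of a gene relative to the library total. The step between the lowest values gave totals of 33.8 to 50.0 M counts per library, so that 3 counts stood for 0.0601 to 0.0888 CPM. With limma, phases were compared over all 16 libraries in the 13249 genes that averaged more than 1 CPM. A gene was called, and is said to have risen or fallen, at a Benjamini-Hochberg adjusted p below 0.05 over all these genes and a log2 fold change of at least 1 in size. Of the 63 genes, 35 entered this test and 28 did not. Genes with no call are given by their values. A call says that CPM differed and cannot tell fewer expressing cells from less RNA per cell.

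The epithelial identity of the cells was checked with 13 urothelial markers, of which 6 were above 1 CPM at P0 and 7 at P15. Their summed level was 2118 to 2190 CPM at P0, 2382 to 2507 at P3, 1768 to 1915 at P7 and 696 to 774 at P15. KRT7, the largest part at P0, was at 957 CPM there and at 11.5 at P15, and KRT8 at 593 and 70.3. GATA3 was at 36.2 CPM at P0 and 1.43 at P15, PPARG at 62.3 and 16.8, and FOXA1 at 28.5 and 3.26. KRT18, which made up most of the sum at P15, was at 471 CPM at P0 and 633 at P15. UPK1A was at 0.0749 CPM at P0 and 1.98 at P15. UPK1B, UPK3A and KRT20 were at 0 in every P15 library, and at most 0.0143 CPM on average at P0. Of 8 fibroblast markers, 2 were above 1 CPM at P0 and 3 at P15, and their sum was 7.26 to 8.45 CPM at P0, 1.78 to 6.47 at P3, 5.57 to 6.54 at P7 and 46.6 to 51.7 at P15, where COL3A1 stood at 21.8 CPM and COL1A1 was the other main part, while DCN was at 0. The sum of 6 leukocyte markers was 6.91 to 9.79 CPM at P0, 2.86 to 3.93 at P3, 6.96 to 7.77 at P7 and 0.827 to 1.29 at P15, with PTPRC at 0 in every P0 library. CD14, the main part of this sum before P15, was at 6.81 CPM at P0, 1.95 at P3, 5.83 at P7 and 0.0577 at P15. The sum of 5 endothelial markers was 6.05 to 7.95 CPM at P0, 0.436 to 0.648 at P3, 0.312 to 1.02 at P7 and 0.515 to 1.09 at P15. CDH5 made up most of it at P0, with 5.69 CPM there and 0.219 at P3. The urothelial, fibroblast and leukocyte sums of P15 thus lay outside those of the other phases, whereas the endothelial sum was already low at P3, and the part of these markers in the results was not tested.

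Promoter sequence is given for 3 inhibitors whose RNA separated late phase P15 from the other phases. RefSeq promoters (250 bases before the start and 50 after it, GRCh38.p14) could be matched to 42 of the 63 genes. The TCF/LEF core was searched on both strands as the letters CTTTG followed by 2 bases that are each A or T, and it was held by 2 of the 42 promoters (4.76%), DKK1 and WNT3, and by 13.8% of the 35116 promoters of the same length in the table. DKK1, the secreted blocker of LRP5 and LRP6, is shown with its cores in capitals, which begin at bases -95 and -76 from the start. NKD2 and RNF43, which were near 0 until P7, are shown with every CG in capitals, and neither window holds a core. Their ratios of observed to expected CG were 0.790 for NKD2 and 0.250 for RNF43, against a median of 0.783 over the 42 promoters and 0.579 over all promoters. A match describes the letters only.
DKK1, chr10:52314031-52314330, plus strand: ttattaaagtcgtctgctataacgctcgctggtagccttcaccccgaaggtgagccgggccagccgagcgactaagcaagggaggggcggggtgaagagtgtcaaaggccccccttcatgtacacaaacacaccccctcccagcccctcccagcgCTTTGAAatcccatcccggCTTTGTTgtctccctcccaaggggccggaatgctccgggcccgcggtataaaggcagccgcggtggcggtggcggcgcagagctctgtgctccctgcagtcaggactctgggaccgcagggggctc
NKD2, chr5:1008552-1008851, plus strand: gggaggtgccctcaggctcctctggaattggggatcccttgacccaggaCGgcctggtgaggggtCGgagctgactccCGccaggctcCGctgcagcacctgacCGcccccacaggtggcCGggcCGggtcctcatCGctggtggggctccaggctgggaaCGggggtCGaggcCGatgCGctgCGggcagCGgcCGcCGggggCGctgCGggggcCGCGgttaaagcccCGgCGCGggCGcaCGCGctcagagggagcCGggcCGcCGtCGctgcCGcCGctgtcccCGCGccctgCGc
RNF43, chr17:58417485-58417784, minus strand: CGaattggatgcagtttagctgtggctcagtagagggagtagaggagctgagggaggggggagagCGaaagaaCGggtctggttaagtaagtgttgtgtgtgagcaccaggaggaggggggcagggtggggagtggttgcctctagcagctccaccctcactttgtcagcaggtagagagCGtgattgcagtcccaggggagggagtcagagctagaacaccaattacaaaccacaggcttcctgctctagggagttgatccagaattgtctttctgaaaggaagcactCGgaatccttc

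**Figure D1:**
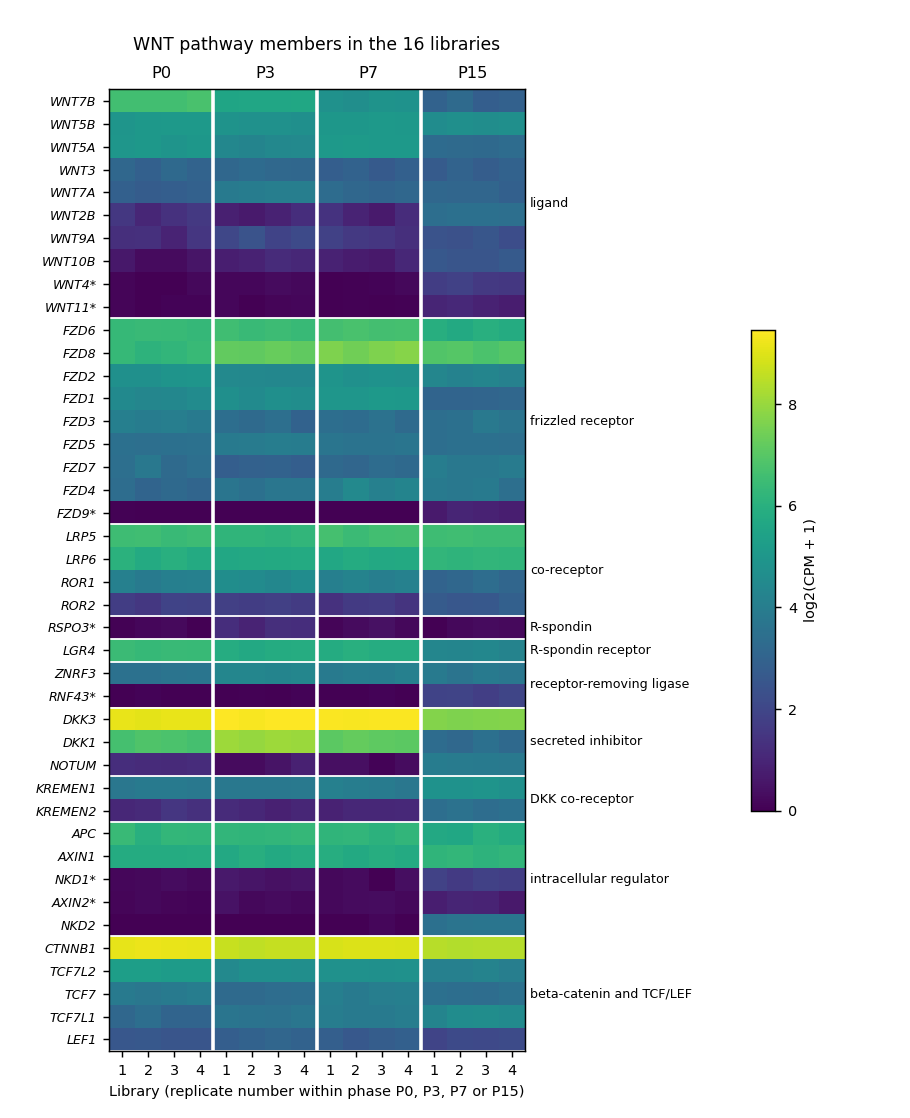
Level of each gene (rows, grouped by role) in each of the 16 libraries (columns, 4 per phase) as log2(CPM + 1) by colour. The 35 tested genes are shown with 7 genes (asterisks) that were under the filter but reached 0.5 CPM in at least 1 phase mean. The P15 columns differ most from the rest for WNT7B, DKK1, NKD2 and NOTUM.

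Late phase P15 held most of the changes. Against P0, 14 of the 35 tested genes were called (40.0%, 7 higher and 7 lower), where 23.6% of all tested genes were called, 12.2% higher and 11.5% lower. NKD2, WNT10B and NOTUM are among the 7 higher, and all passed the filter only through the P15 libraries in which they are high. The next count leaves out NKD2 and WNT10B but keeps NOTUM, which averaged 1.28 CPM at P0. Over genes with more than 1 phase mean above 1 CPM, 12 of 33 were called (36.4%, 5 higher and 7 lower), beside 22.1% of all such genes. With at least 1 CPM required in all 16 libraries, 8 of 29 were called (27.6%, 1 higher and 7 lower), beside 18.5%. Against P7, 12 were called (34.3%, 6 higher and 6 lower), where the share over all genes was 25.5%, 13.4% higher and 12.1% lower, and over genes with more than 1 phase mean above 1 CPM 10 of 33 (30.3%) were called, beside 3116 of all 12942 such genes. Early phase P3 had 3 calls against P0 (8.57%), WNT7A and DKK1 up and WNT7B down, with 4.47% of all genes called, 1.95% higher and 2.51% lower. P7 had 3 against P0, FZD4 and FZD8 up and WNT7B down, with 3.37% called, 1.86% higher and 1.52% lower. Between P3 and P7 none of the 35 was called by limma, with 1.84% of all genes called, although 23 of them had an adjusted p below 0.05 at changes of less than 2-fold, a p that 58.2% of all tested genes reached. In all, 18 of the 35 genes were called at least once. The median log2 fold change over the 35 was -0.04 for P15 against P0 and -0.21 for P15 against P7, beside 0.04 and 0.05 over all tested genes. P3, P7 and P15 are set against the same P0 libraries, so that these comparisons are not independent of each other.

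**Figure D2:**
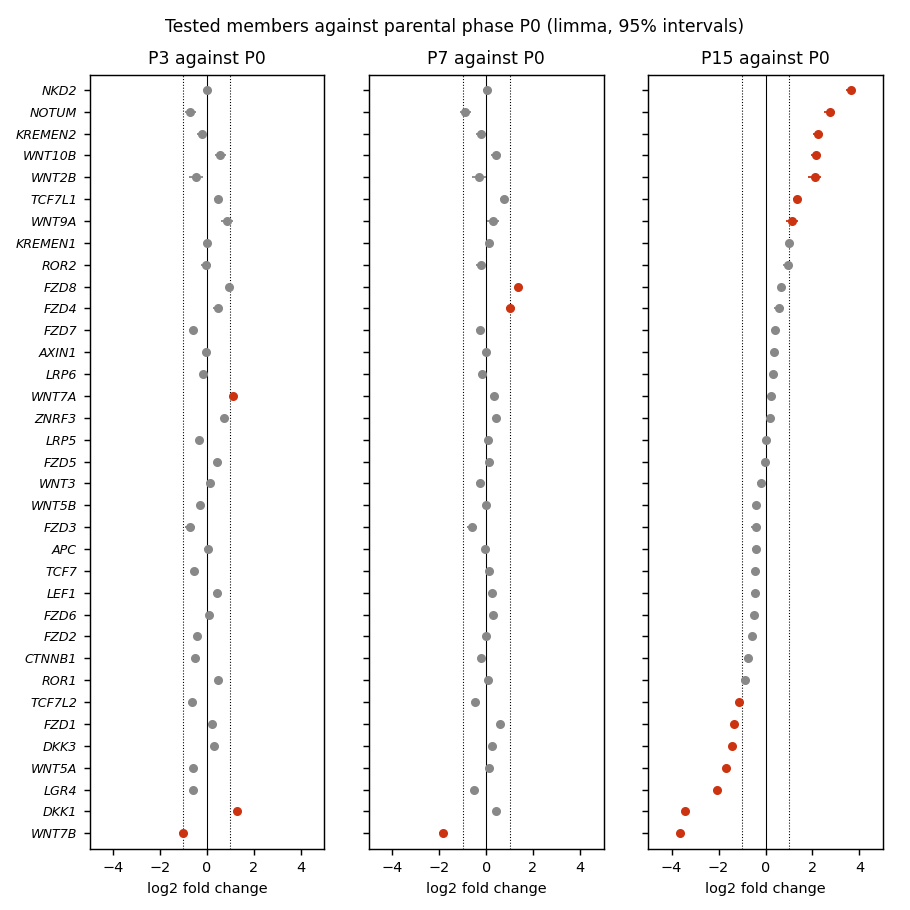
Log2 fold change of the 35 tested genes against parental phase P0 with 95% intervals from limma, in 3 panels for P3, P7 and P15. Red points are called (adjusted p below 0.05 and at least 2-fold, the dotted lines) and grey points are not. The 3 calls at P3 and the 3 at P7 contrast with 14 at P15, from -3.64 for WNT7B to 3.63 for NKD2, which like WNT10B and NOTUM passed the filter only through P15.

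Among the 19 WNT ligands, 8 were tested, and WNT7B, WNT5A, WNT7A, WNT9A, WNT10B and WNT2B were called at least once. WNT7B, a ligand of beta-catenin signalling in epithelia, fell at every step that was compared with P0. It lies at chr22:45920366-45977162 on the minus strand of GRCh38. Its values were 6.61, 6.61, 6.61 and 6.74 in the P0 libraries, 5.58, 5.61, 5.61 and 5.63 at P3, 4.78, 4.67, 4.85 and 4.82 at P7, and 2.98, 3.26, 2.82 and 2.95 at P15. The ranges of the 4 phases did not overlap. It fell by 1.03 on the log2 scale at P3 (SE 0.07, adjusted p = 1.2e-12), by 1.86 at P7 (adjusted p = 2.5e-17) and by 3.64 at P15 (adjusted p = 2.5e-24), and mean CPM went from 99.0 ± 4.61 at P0 to 7.06 ± 1.07 at P15 (SD, n = 4).

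WNT5A, the ligand best known for signalling through ROR receptors, fell late. It stood at 4.98, 5.05, 4.91 and 5.03 at P0, at 4.38, 4.28, 4.41 and 4.45 at P3, at 5.11, 5.15, 5.14 and 5.07 at P7 and at 3.32, 3.26, 3.22 and 3.36 at P15. The P15 libraries were below all others, and the P3 libraries lay between them and the P0 libraries. WNT5A fell by 1.70 from P0 to P15 (SE 0.05, adjusted p = 1.1e-19) and by 1.83 from P7 to P15 (adjusted p = 2.3e-20). Its paralog WNT5B had phase means of 5.05, 4.79, 5.04 and 4.67 in the order P0, P3, P7 and P15, and was not called.

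WNT7A, another ligand of the WNT7 group, was highest at P3. The libraries read 2.91, 2.74, 2.83 and 2.95 at P0, 3.91, 3.96, 4.04 and 4.04 at P3, 3.35, 3.16, 3.07 and 3.18 at P7 and 3.16, 3.14, 3.12 and 2.90 at P15. P3 did not overlap with any other phase. WNT7A rose by 1.13 from P0 to P3 (SE 0.08, adjusted p = 3.5e-12), whereas WNT7B fell over the same step.

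The ligands called higher at P15 against P0 were WNT10B, WNT2B and WNT9A, with means of 0.350, 1.62 and 1.42 CPM at P0. For WNT10B a low level before P15 follows from how it passed the filter. WNT7A, at 6.26 CPM at P0, was 0.22 higher on the log2 scale at P15 and not called. WNT10B, a ligand of beta-catenin signalling known from mammary gland and bone, read 0.61, 0.29, 0.27 and 0.53 at P0, 0.80, 0.92, 1.18 and 1.07 at P3, 0.92, 0.73, 0.66 and 1.05 at P7 and 2.62, 2.50, 2.48 and 2.70 at P15. It averaged more than 1 CPM at P15 only, the phase through which it passed the filter, and so had to differ. The log2 differences were 2.15 from P0 and 1.74 from P7, and no p is given for them. WNT2B, known from lung development, read 1.55, 1.03, 1.35 and 1.57 at P0, 0.82, 0.68, 0.90 and 1.24 at P3, 1.40, 0.96, 0.68 and 1.22 at P7 and 3.44, 3.48, 3.48 and 3.47 at P15. The libraries from P0 to P7 overlapped and those of P15 lay above all of them. WNT2B rose by 2.09 against P0 (SE 0.14, adjusted p = 6.6e-13) and by 2.40 against P7 (adjusted p = 3.8e-14). Exons of ST7L on the other strand cover 21.5% of its exon bases, the strand setting of the counting is not given in the sources used here, and ST7L itself had means of 3.74 at P0 and 4.44 at P15. WNT9A, a ligand known from joint formation, read 1.28, 1.31, 0.95 and 1.51 at P0, 2.01, 2.44, 1.89 and 2.13 at P3, 1.82, 1.57, 1.48 and 1.28 at P7 and 2.44, 2.35, 2.52 and 2.23 at P15. It was called at P15 against P0 (1.12, SE 0.13, adjusted p = 1.6e-08), and its P3 and P15 libraries overlapped. WNT3, a ligand of beta-catenin signalling, had phase means between 2.84 and 3.21 and was not called.

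Of the 11 ligands under the filter, WNT4 and WNT11 reached 0.5 CPM in a phase mean, both at P15. WNT4, known from kidney and gonad development, read 0.14, 0.00, 0.00 and 0.22 at P0, 0.18, 0.17, 0.26 and 0.20 at P3, 0.00, 0.06, 0.08 and 0.21 at P7 and 1.73, 1.84, 1.59 and 1.54 at P15. Every P15 library was above every other library. The mean log2 difference of P15 against P0 was 1.58. WNT4 was picked through its P15 level, so no p is given. WNT11, a ligand known from cell movements in the embryo, had 0.00 to 0.14 at P0 and 0.76 to 1.10 at P15, with no p for the same reason. WNT9B was at 0 in all 16 libraries. The other 8 ligands (WNT1, WNT2, WNT3A, WNT6, WNT8A, WNT8B, WNT10A and WNT16) stayed at or below 0.58 in every library, the highest being WNT8B in a P15 library.

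**Figure D3:**
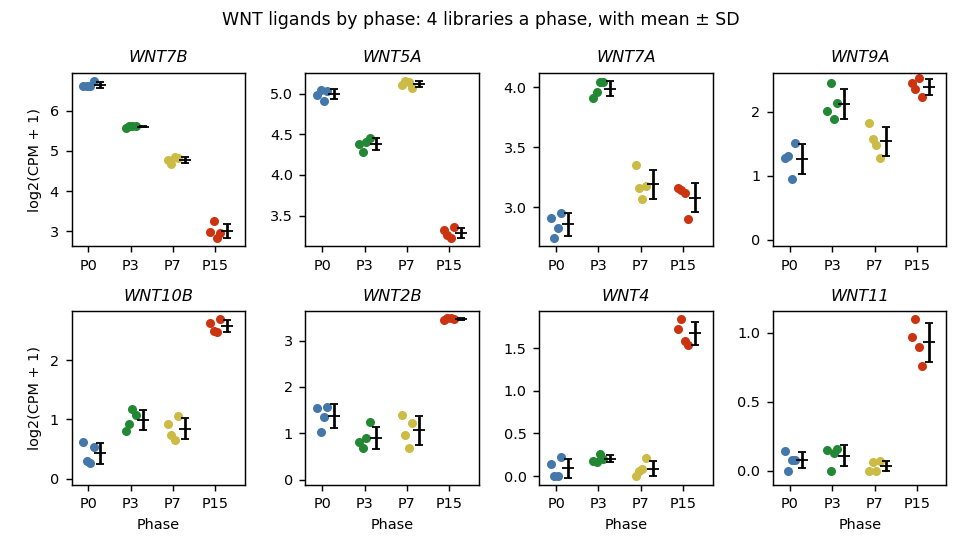
Level of 8 WNT ligands as log2(CPM + 1) (vertical axes, which differ between panels) by phase, with 1 point per library and the mean ± SD of 4 libraries in black. WNT7B steps down at each phase and WNT7A peaks at P3, while WNT10B, WNT2B, WNT4 and WNT11 are highest in the 4 P15 libraries.

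Levels of different genes were compared after division by exon length, as CPM per kb. This length is that of all annotated exons of a gene together, and the RNA made in these cells may be shorter. Orders and shares between genes, here and below, depend on it. The summed level of the 19 ligands was 34.9 ± 1.26 CPM per kb at P0 (SD, n = 4), 24.7 ± 0.192 at P3, 21.4 ± 0.372 at P7 and 16.2 ± 0.582 at P15. Its make-up moved from WNT7B, with 55.8% of the sum at P0, to WNT5B, with 35.7% at P15. WNT10B, at 0.134 ± 0.0616 CPM per kb the seventh ligand at P0, was the second at P15 with 1.91 ± 0.166, followed by WNT7A at 1.65 ± 0.151. Before division by length, WNT2B was above WNT10B at P15, at 10.1 and 4.97 CPM. WNT7B ended at 1.39 ± 0.211 CPM per kb.

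The frizzled receptors, the membrane receptors that bind WNT proteins, comprised 10 genes, of which 8 were tested and FZD1, FZD4 and FZD8 called. FZD8 (chr10:35638247-35642296) read 6.34, 6.12, 6.25 and 6.37 at P0, 7.21, 7.15, 7.27 and 7.15 at P3, 7.65, 7.42, 7.64 and 7.75 at P7 and 6.89, 6.99, 6.78 and 6.99 at P15. The phases did not overlap, and the order from low to high was P0, P15, P3 and P7. It rose by 1.34 from P0 to P7 (SE 0.06, adjusted p = 2.3e-15). FZD4, which also serves as the receptor of norrin, read 3.39, 3.04, 3.23 and 3.10 at P0, 3.67, 3.51, 3.71 and 3.70 at P3, 4.03, 4.46, 4.14 and 4.27 at P7 and 3.89, 3.80, 3.90 and 3.45 at P15. It rose by 1.03 from P0 to P7 (SE 0.10, adjusted p = 2.8e-09), and was 0.98 without P0 replicate 2 and 0.96 without P7 replicate 2, just under the fold threshold. Exons of PRSS23 on the other strand cover 18.9% of the exon bases of FZD4, and PRSS23 had means of 5.67 at P0, 7.45 at P3, 7.49 at P7 and 5.30 at P15. Its part in the FZD4 values was not tested.

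FZD1 went the other way at P15. It read 4.48, 4.36, 4.40 and 4.57 at P0, 4.72, 4.55, 4.70 and 4.65 at P3, 4.99, 4.98, 5.12 and 5.05 at P7 and 3.05, 3.05, 3.08 and 3.18 at P15. The P7 libraries were the highest and the P15 libraries the lowest, with no overlap with any other phase. FZD1 fell by 1.36 against P0 (SE 0.06, adjusted p = 8.8e-17) and by 1.95 against P7 (adjusted p = 5.8e-20). FZD2, FZD3, FZD5, FZD6 and FZD7 had log2 fold changes of P15 against P0 between -0.57 and 0.40 and were not called. FZD9, listed at 0 in all but 1 library before P15, had 0.68 to 0.99 at P15. It reached 0.5 CPM at P15 alone, so no p is given. Its mean CPM at P15 was at least 9.32-fold higher than the floor of 3 counts per library at P7. FZD10 was at 0 in the 12 libraries of P0, P3 and P7 and at 0.19 to 0.32 in the 4 of P15.

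Per kb, the frizzled sum was 55.1 ± 1.01 CPM at P0, 71.8 ± 2.88 at P3, 91.4 ± 3.97 at P7 and 57.0 ± 0.988 at P15, so that the P0 and P15 sums differed by less than their ranges of 53.7 to 56.1 and 55.5 to 57.7. FZD6 (36.3%) and FZD8 (34.2%) shared the lead at P0, with levels of 20.0 ± 0.693 and 18.9 ± 1.46 CPM per kb that did not differ beyond their spread. FZD8 alone made up 50.0% at P3, 52.9% at P7 and 51.9% at P15.

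Of the co-receptors, LRP5 and LRP6, which complete the receptor for beta-catenin signalling, were not called. LRP5 had phase means of 6.50, 6.18, 6.60 and 6.51 and LRP6 of 5.90, 5.75, 5.73 and 6.20. ROR2, a receptor of WNT5A, read 1.71, 1.55, 1.92 and 1.86 at P0, 1.78, 1.72, 1.78 and 1.64 at P3, 1.35, 1.61, 1.70 and 1.43 at P7 and 2.71, 2.56, 2.60 and 2.91 at P15, and rose by 1.17 against P7 (SE 0.10, adjusted p = 9.0e-11). ROR1 had a log2 fold change of -0.96 over the same step (adjusted p = 1.9e-11) and of -0.88 against P0, under the fold threshold. Per kb, ROR1 was at 2.34 ± 0.190 CPM and ROR2 at 0.409 ± 0.0651 at P0, and at 1.21 ± 0.154 and 0.936 ± 0.124 at P15. The sum of the 4 co-receptors stayed between 20.4 and 23.8 CPM per kb.

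The R-spondin arm keeps frizzled receptors at the surface: R-spondins bind LGR receptors and clear RNF43 and ZNRF3, the ligases that mark frizzleds for removal. LGR4 (chr11:27365961-27472790) was the only LGR gene that passed the filter, and it made up at least 99.1% of the LGR sum in every phase. It read 6.45, 6.35, 6.43 and 6.37 at P0, 5.85, 5.73, 5.84 and 5.88 at P3, 5.82, 5.99, 5.85 and 5.87 at P7 and 4.36, 4.30, 4.37 and 4.23 at P15. P3 and P7 overlapped, and P0 lay above and P15 below them. LGR4 fell by 2.08 from P0 to P15 (SE 0.05, adjusted p = 1.2e-22) and by 1.57 from P7 to P15 (adjusted p = 3.4e-20), and its level went from 13.1 ± 0.439 to 2.98 ± 0.139 CPM per kb. LGR5 and LGR6 reached at most 0.51 in any library.

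None of the 4 R-spondins passed the filter. RSPO3 was seen mainly at P3, with 0.07, 0.15, 0.23 and 0.00 at P0, 1.25, 0.96, 1.28 and 1.24 at P3, 0.14, 0.26, 0.43 and 0.21 at P7 and 0.00, 0.19, 0.29 and 0.24 at P15. The P3 libraries were above all others. The difference from P0 was 1.07 on the log2 scale, with no p, since RSPO3 reached 0.5 CPM at P3 alone. RSPO4 was at 0 throughout, and RSPO1 and RSPO2 had counts in P15 libraries alone, at up to 0.15 and 0.20.

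The ligases differed in pattern. ZNRF3 was expressed in all phases, with means of 3.60, 4.32, 4.00 and 3.80 in the order P0, P3, P7 and P15, and was not called. RNF43 read 0.00, 0.08, 0.00 and 0.00 at P0, 0.00, 0.07, 0.00 and 0.08 at P3, 0.00, 0.00, 0.08 and 0.00 at P7 and 1.91, 1.94, 1.74 and 1.99 at P15. All libraries before P15 were at or near 0 and all P15 libraries were well above them. The difference of P15 from P0 was 1.88. RNF43 reached 0.5 CPM at P15 alone, so no p is given. At P15 RNF43 supplied 18.9% of the summed ligase level per kb. Another annotated gene on the same strand shares 68.4% of its exon bases, so its count is uncertain.

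The secreted inhibitors comprised 9 genes, and the 3 that were tested were all called at P15. DKK1 (chr10:52314281-52318042), which binds LRP5 and LRP6 and blocks them, rose early and then fell. It read 6.66, 6.86, 6.77 and 6.67 at P0, 8.08, 7.99, 8.08 and 8.03 at P3, 7.10, 7.23, 7.13 and 7.10 at P7 and 3.34, 3.21, 3.50 and 3.22 at P15. None of the phases overlapped. It rose by 1.30 from P0 to P3 (SE 0.05, adjusted p = 3.8e-16), and it fell by 3.42 from P0 to P15 (SE 0.05, adjusted p = 1.7e-25) and by 3.82 from P7 to P15 (adjusted p = 1.7e-26), which is 11.8-fold and 15.6-fold lower in mean CPM. PRKG1-AS1, whose exons cover 10.2% of those of DKK1 on the other strand, had means of 0.35 at P0, 0.67 at P3 and 0.29 at P15.

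DKK3, a member of the DKK family that does not bind LRP6 in the way DKK1 does, followed with smaller steps. It read 9.16, 9.10, 9.16 and 9.15 at P0, 9.44, 9.39, 9.47 and 9.45 at P3, 9.40, 9.38, 9.41 and 9.42 at P7 and 7.73, 7.65, 7.69 and 7.72 at P15. It fell by 1.45 against P0 (SE 0.03, adjusted p = 9.2e-24) and by 1.71 against P7 (adjusted p = 3.1e-25). Exons of USP47 on the other strand cover 47.5% of its exon bases, and USP47 had means of 6.64 at P0 and 7.05 at P15, in the opposite direction.

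NOTUM (chr17:81952507-81961840), an enzyme that inactivates WNT proteins by removing their lipid, rose at P15 after a dip. It read 1.25, 1.18, 1.11 and 1.21 at P0, 0.28, 0.26, 0.50 and 0.87 at P3, 0.40, 0.40, 0.08 and 0.33 at P7 and 3.96, 3.94, 3.92 and 3.83 at P15. P3 and P7 overlapped, P0 lay above them, and P15 was above all. The log2 differences of P15 were 2.73 from P0 and 3.61 from P7. Mean CPM was 1.28 ± 0.0927 at P0, 0.413 at P3, 0.238 at P7 and 14.1 ± 0.590 at P15. NOTUM thus passed the filter only with its P15 libraries, and no p is given. SFRP1 was at 0 in all libraries, and DKK2, DKK4, SFRP2, SFRP5 and WIF1 did not exceed 0.29 in any.

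Per kb, the inhibitor sum was 95.4 ± 2.47 CPM at P0, 177 ± 4.79 at P3, 120 ± 2.22 at P7 and 26.2 ± 0.731 at P15. DKK1 made up 50.1% at P0, where it and DKK3 (47.8 ± 3.18 and 47.2 ± 0.932 CPM per kb) did not differ beyond their spread, and 67.1% at P3. Both shares rest on exon lengths of 2221 bases for DKK1 and 11958 for DKK3. Before division by length, DKK3 was the higher at P0, at 564 CPM with DKK1 at 106. At P15 DKK3 made up 65.9% and NOTUM 18.4%, and NOTUM at 4.83 ± 0.203 CPM per kb and DKK1 at 4.05 ± 0.432 overlapped in range.

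**Figure D4:**
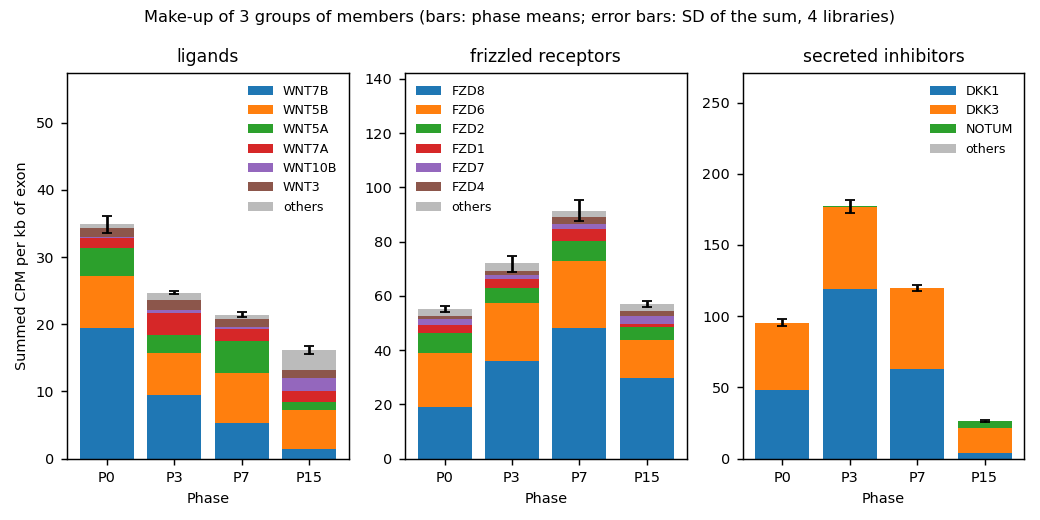
Summed level in CPM per kb of exon (vertical axes, which differ between panels) of the WNT ligands, frizzled receptors and secreted inhibitors by phase, with the mean share of each leading gene as a coloured segment and the SD of the sum over 4 libraries as error bars. WNT7B shrinks step by step in the ligand panel, FZD8 leads the frizzleds from P3 on, and DKK1 shrinks to a small segment at P15.

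The KREMEN genes encode membrane partners through which DKK1 removes LRP6 from the surface, and KREMEN2 moved opposite to DKK1 at P15. KREMEN2 (chr16:2964216-2968380) read 1.06, 1.14, 1.49 and 1.31 at P0, 1.17, 1.05, 0.87 and 1.02 at P3, 0.90, 1.06, 1.07 and 1.10 at P7 and 3.44, 3.58, 3.40 and 3.48 at P15. It rose by 2.23 against P0 (SE 0.10, adjusted p = 1.4e-16) and by 2.44 against P7 (adjusted p = 1.9e-17). PKMYT1 exons on the other strand cover 15.3% of its exon bases, and PKMYT1 had means of 5.35 at P0 and 5.51 at P15. KREMEN1 had means of 3.82, 3.81, 3.96 and 4.82, and its log2 fold change of P15 against P0, 1.00 after rounding (95% interval 0.87 to 1.13, adjusted p = 2.2e-13), was just below the threshold and not called. The summed level of both genes was 2.24 ± 0.168 CPM per kb at P0 and 7.73 ± 0.221 at P15.

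Inside the cell, the scaffolds of the destruction complex were not called, while the feedback inhibitors had their highest values at P15. APC had means of 6.22, 6.25, 6.18 and 5.80 and AXIN1 of 5.83, 5.81, 5.84 and 6.21, and neither was called. NKD2 (chr5:1008802-1038943), which binds Dishevelled and dampens WNT signalling, was at 0.00 in the 4 libraries of P0 and the 4 of P3, at 0.00, 0.00, 0.16 and 0.00 at P7 and at 3.50, 3.64, 3.69 and 3.68 at P15. It passed the filter through its P15 libraries alone and so had to differ, and no p is given. The log2 difference from P0 was 3.63, and mean CPM at P15 was at least 130-fold higher than the floor of 3 counts per library at P0. No exon of another gene overlaps NKD2 in the annotation.

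NKD1 and AXIN2, both known direct targets of beta-catenin, were under the filter. NKD1 read 0.18, 0.22, 0.30 and 0.22 at P0, 0.66, 0.53, 0.42 and 0.50 at P3, 0.21, 0.26, 0.00 and 0.36 at P7 and 1.87, 1.60, 1.82 and 1.77 at P15. It differed from P0 by 1.54 at P15 and by 0.30 at P3, with no overlap in either case. NKD1 reached 0.5 CPM at P15 alone, so no p is given for P15. For P3 the exact permutation test (two-sided) gave p = 0.029, the smallest that this design can give, and 0.056 after adjustment. AXIN2 ranged from 0.08 to 0.19 at P0, from 0.20 to 0.45 at P3, from 0.21 to 0.30 at P7 and from 0.66 to 0.99 at P15. Against P0, P3 and P7 each gave the same p of 0.029 in the exact permutation test, at differences of 0.15 and 0.11. P15 and P0 differed by 0.72, with no p, since AXIN2 too reached 0.5 CPM at P15 alone. Another gene on the same strand shares 25.3% of the AXIN2 exon bases.

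**Figure D5:**
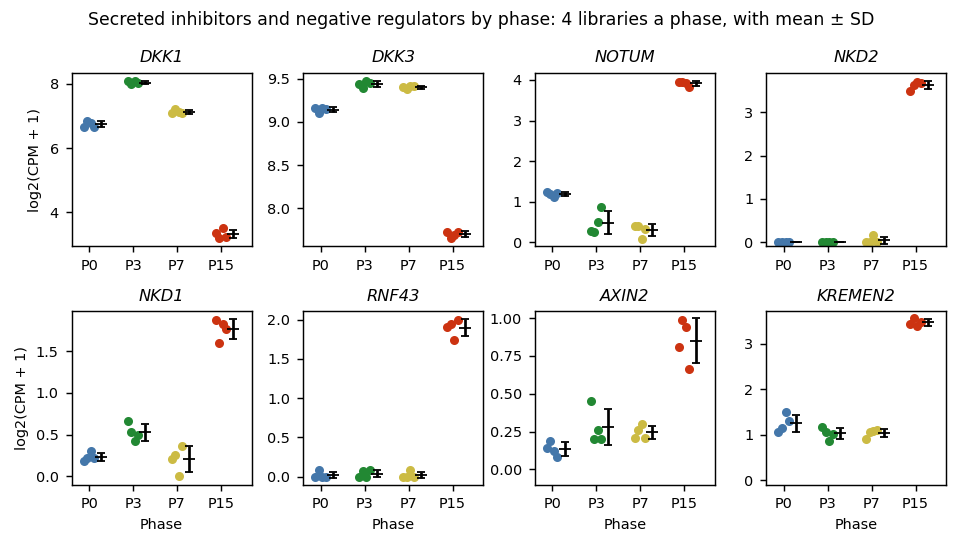
Level of 8 secreted inhibitors and negative regulators as log2(CPM + 1) (vertical axes, which differ between panels) by phase, with 1 point per library and the mean ± SD of 4 libraries in black. DKK1 and DKK3 are lowest in the P15 libraries, whereas NOTUM, NKD2, NKD1, RNF43, AXIN2 and KREMEN2 are highest there.

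Beta-catenin RNA itself was not called, with CTNNB1 means of 9.16, 8.64, 8.94 and 8.41 and a log2 fold change of -0.75 for P15 against P0 (adjusted p = 7.8e-17). Its partners divided. TCF7L1, the TCF factor known mostly as a repressor, read 3.17, 3.43, 3.05 and 3.04 at P0, 3.69, 3.60, 3.57 and 3.70 at P3, 4.02, 3.90, 3.85 and 4.02 at P7 and 4.26, 4.61, 4.64 and 4.55 at P15. Each phase lay above the one before it, with no overlap. It rose by 1.34 from P0 to P15 (SE 0.09, adjusted p = 2.8e-13). TCF7L2, the main TCF factor of many epithelia, read 5.32, 5.32, 5.18 and 5.21 at P0, 4.47, 4.71, 4.70 and 4.68 at P3, 4.80, 4.78, 4.75 and 4.78 at P7 and 4.11, 4.13, 4.24 and 4.05 at P15, and fell by 1.12 (SE 0.06, adjusted p = 2.5e-15). Per kb the order of the pair turned over, from 5.54 ± 0.288 CPM for TCF7L2 and 1.82 ± 0.269 for TCF7L1 at P0 to 2.46 ± 0.145 and 4.96 ± 0.593 at P15. TCF7 (means of 3.89, 3.34, 4.03 and 3.46) and LEF1 (2.55, 2.99, 2.79 and 2.08) were not called.

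The wider pathway was described with a list of 117 other genes, of which 115 were in the table and 90 were tested. The list was drawn up with earlier results of these data known, so its called shares are not read as a trait of the pathway. In P15 against P0, 30 of them were called (33.3%, 20 higher and 10 lower), beside 23.6% of all tested genes, and in P15 against P7 34 (37.8%), beside 25.5%. Without the genes above 1 CPM in 1 phase mean only, 25 of 85 (15 higher and 10 lower) and 29 of 85 were called. P3 had 5 calls (5.56%) and P7 4 (4.44%) against P0, beside 4.47% and 3.37% of all tested genes. P7 had 3 (3.33%) against P3, beside 1.84%. Of 21 genes for Dishevelled, the destruction complex and protein turnover, only CSNK1E, a casein kinase that acts on Dishevelled, was called in P15 against P0 (log2 fold change 1.16). Of 17 tested genes of the planar polarity and calcium branch, 11 were called, 7 higher and 4 lower. PLCB4, a phospholipase C, was at 4.81 and NFATC1, a calcium-dependent transcription factor, at 3.58. Both passed the filter only with their P15 libraries, so no p is given. PLCB4 had means of 1.02 at P0, 0.60 at P3, 0.28 at P7 and 5.84 at P15. FUZ, a planar polarity effector, was at -2.09 (limma adjusted p = 7.8e-16). Of 19 tested genes known as beta-catenin/TCF targets, 4 rose (MYC, PLAUR, BAMBI and PRDM1) and 5 fell (BMP4, EPHB2, TNFRSF19, CCND1 and SP5). PRDM1, with means of 0.59 at P0, 0.58 at P3, 0.59 at P7 and 2.00 at P15, also passed the filter only with its P15 libraries. PLAUR, the urokinase receptor, had a log2 fold change of 2.59, BMP4, a growth factor, of -3.05 and EPHB2, an ephrin receptor, of -2.99. In this list the targets thus went in both directions. Of the inhibitors named at the start as targets, only DKK1 was lower at P15 than at P0 (-3.42). NOTUM (2.73), RNF43 (1.88), NKD1 (1.54), AXIN2 (0.72) and ZNRF3 (0.20, not called) were higher. RNF43, NKD1 and AXIN2 were under the filter. Of 17 tested nuclear co-factors 3 were called, of 7 other receptors 4, of 5 secretion genes 1 and of 4 other inhibitors 1. The secretion gene called (ADGRA2), the other inhibitor called (DACT1) and GPC4 among the receptors passed the filter only with their P15 libraries. They thus had to differ.

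In the annotation used here (GENCODE version 44 on GRCh38), a few of the genes lie close together, and no test of shared patterns was made. WNT10B and WNT1 lie 6587 bases apart on chromosome 12, and WNT10B was highest at P15 while WNT1 was at 0 in 15 libraries and at 0.04 in the other. WNT3 and WNT9B are 47 bases apart on chromosome 17, with WNT3 at means of 2.84 to 3.21 and WNT9B at 0. WNT6 and WNT10A are 6619 bases apart on chromosome 2, and both, at or below 0.32 in every library, had their highest mean at P15 (0.16 and 0.21). WNT9A and WNT3A are 59066 bases apart on chromosome 1, where WNT3A was at 0 in all libraries but 1. ZNRF3 and KREMEN1 are 15547 bases apart on chromosome 22, and their log2 fold changes of P15 against P0 were 0.20 and 1.00.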

How the data were processed

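RNA libraries of T24 cells (P0) and of the GRC1 cell line (P3, P7 and P15) were analysed, 4 per phase. Per the labels and the study's methods, STAR 2.6.1a (GRCh38) and featureCounts gave the authors their gene counts, and the deposited values are log2 of CPM plus 1, rounded to 2 decimals. Quantile normalization and median centring, also described in the methods, are not visible in them. Annotation release, strand setting and handling of reads that fit several genes are not given in the sources used here. Oligo(dT) priming was used.

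Library totals were estimated at 33.8 to 50.0 M counts from the step between low values, and depth limits levels under 3 counts. In R 4.3.3, limma 3.58.1 was fitted to the log2 values with a coefficient for each phase and a variance trend. Only the 13249 genes averaging more than 1 CPM entered, and p-values were adjusted over them (Benjamini-Hochberg). The procedure was tested on simulated data. Fold changes are on the log2(CPM + 1) scale, which understates those of low genes. Of the genes under the filter, the 7 with a phase mean of at least 0.5 CPM were compared by an exact permutation test, with Benjamini-Hochberg adjustment over 35 tests. Each of them reached 0.5 CPM only in the phase in which it is highest, so no p is given for comparisons with that phase. Those comparisons are among the 35, so the adjusted values of the others are not read. Python 3.11.15 with numpy 2.4.6, pandas 2.3.3, scipy 1.17.1 and matplotlib 3.10.9 was used for the rest. Exon lengths, positions and overlaps are those of GENCODE version 44, which may differ from the annotation counted on, and promoters are RefSeq's (GRCh38.p14).

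Groups and replicate numbers come from the labels. Every library's value is given for each gene called in at least 1 of 5 comparisons and for each gene under the filter that differed by at least 1. Of the other pathway genes, the 3 largest rises and 3 largest falls called in P15 against P0 are given, and the others named were chosen after their values were seen. The genes and lists were chosen with earlier results of these data known. As alternatives, the filter, the pseudocount (0.1 and 5), the scaling (quantiles or equal medians), the variance trend, the fold threshold, a replicate block, fits to 2 phases only and the omission of each library were tried. Counts over genes above 1 CPM in more than 1 phase mean were added after the data were seen. One gene of the leukocyte marker list is not reported here.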

Additional observations from a re-analysis of the deposited data

Results flagged for a closer look

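In 9 of 138 groups of 4 libraries, 1 library stood apart from the other 3 by Dixon's ratio (the gap to the nearest library over the range of the group, above the critical value for 4 samples), where about 1 in 20 groups, here 6.90, would do so by chance. The lowest library stood apart for DKK3 in P0 replicate 2 (ratio 0.83), FZD5 in P15 replicate 1 (0.83), TCF7 in P7 replicate 2 (0.83), TCF7L2 in P3 replicate 1 (0.87), WNT7A in P15 replicate 4 (0.85) and ZNRF3 in P3 replicate 3 (0.86). The highest library stood apart for WNT3 in P3 replicate 2 (0.92), WNT7B in P0 replicate 4 (1.00) and NKD2 in P7 replicate 3 (1.00), the only library of NKD2 above 0 before P15. The 9 cases fall in 9 different genes and no call was lost when any of these libraries was left out, apart from that of FZD4 given with its values.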

How the results depend on the processing

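The 18 genes gave 32 calls over the 5 comparisons. Among them are those of NKD2, NOTUM and WNT10B at P15. These genes passed the filter only through P15, and nothing is read from their calls being kept. Under the alternatives, 853 values of the 32 calls included 841 that kept the call, 12 that lost it and 0 that turned direction. Those lost were FZD4 at P7 against P0 (0.79 with a pseudocount of 5, and without P0 replicate 2 or P7 replicate 2), ROR2 at P15 against P7 and WNT9A at P15 against P0 (pseudocount of 5 and quantile normalization), and, with a pseudocount of 5, TCF7L2 (-0.97) and WNT10B (0.90 against P0 and 0.78 against P7) at P15, and WNT7A (0.82) and WNT7B (-0.98) at P3. Of the 35 tested genes, 6 were called at P3 and 5 at P7 against P0 with a pseudocount of 0.1, and 1 at P3 with a pseudocount of 5. For the pseudocounts, quantile normalization and the fit without a filter, no share over all genes is given. Counts under them, here and below, are thus not read as a trait of the genes listed. With at least 1 CPM required in all 16 libraries, which drops genes that were near 0 in a phase, 8 of 29 were called in P15 against P0 (27.6%, beside 18.5% of all genes) and 7 of 29 in P15 against P7 (beside 20.4%). Restricting the counts to genes with more than 1 phase mean above 1 CPM, chosen after seeing the data, left every count within 1.5 times. With no fold threshold, 28 (80.0%, beside 68.7% of all genes) passed at P3, 23 (65.7%, beside 62.1%) at P7 and 33 (94.3%, beside 86.2%) at P15 against P0, 23 (65.7%, beside 58.2%) in P7 against P3 and 31 (88.6%, beside 86.4%) in P15 against P7. Of the other pathway genes, the counts with a pseudocount of 0.1 were 9 at P3 and 9 at P7 against P0 and 7 in P7 against P3, and with a pseudocount of 5 they were 3 at P3 and 17 at P15 against P0, 0 in P7 against P3 and 19 in P15 against P7. Quantile normalization left 1 in P7 against P3, and 1 CPM in all 16 libraries left 18 in P15 against P0. With no fold threshold the counts were 60, 63 and 78 against P0, 60 in P7 against P3 and 79 in P15 against P7. Without a filter on low values, RSPO3 was also called at P3 against P0, and RNF43, NKD1 and WNT4 at P15 against P0, which made 4 and 17 calls, and the exact test of 4 against 4 libraries could not pass the threshold for these genes after adjustment. Scaling to equal medians moved no phase by 0.1, since the phase means of the library medians were 4.86 to 4.90.

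Same-numbered libraries of different phases did not deviate together (r of -0.15 to 0.22 over 24 pairs, and 4 of 16 libraries were closest to their own number), nor did they by the number in the titles (-0.12 to 0.22, 5 of 16). A fit with the replicate block gave 3, 3, 14, 0 and 12 calls in the order P3, P7 and P15 against P0, P7 against P3 and P15 against P7, and 5, 4, 30, 3 and 34 among the other pathway genes, with either numbering.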
